A study of Homo sapiens with 3 samples.

Results

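A set of 10 genes known as targets of YAP and TAZ was followed in AB12 cells, a mouse malignant mesothelioma line, after knockdown of Nf2. They were chosen by name among known YAP/TAZ targets outside the CCN family, with earlier results of these data in view: Ankrd1, Crim1, Amotl2, Amotl1, Ajuba, Ccdc80, Edn1, Asap1, F3 and Nt5e. All 10 have a row among the 13936 genes of the table, and all 10 passed the filter on low values (a mean of at least 10 over the libraries) that left 12813 genes to test. The series holds 3 RNA libraries of AB12 cells grown in RPMI with serum: 1 labelled shSC, treated here as the control, and 2 labelled shNF2, numbered 20 and 21. The column names also call shSC wild type and both shNF2 libraries knockdown. The labels do not say whether 20 and 21 are different hairpins, clones or cultures, so a p-value here rests on a spread that may be technical. Although the samples are labelled as human, the gene identifiers and the build in the submitters' processing notes are those of the mouse.

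YAP and TAZ are coactivators that bind TEAD factors on DNA and switch on genes of growth, adhesion and matrix. The Hippo kinases LATS1 and LATS2 phosphorylate them and keep them out of the nucleus, and merlin, the product of Nf2, promotes this restraint at the cell membrane. NF2 is often lost in mesothelioma, and several targets, such as the angiomotins and Ajuba, feed back on the pathway.

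Values are scaled counts, that is reads per gene divided by 1 factor per library, and each library held between 25837151 and 29532600 reads in genes. Nf2 measured 1539 in shSC, with 486 and 458 scaled counts in libraries 20 and 21, a log2 fold change of -1.70 (limma adjusted p = 0.00555), in the direction of the labels. Of 10 mesothelial markers 5 have a row in the table used here, whereas Wt1, Upk3b, Lrrn4, Gpm6a and Pdpn have none. Among those with a row, the keratin gene Krt7 rose, from 49.7 scaled counts to 290 and 183 (limma adjusted p = 0.0119). Krt19 was at 5113, 3016 and 2618, and Krt18 and Krt8 were also below shSC in both shNF2 libraries, none of them passing. Msln, the mesothelin gene, was at 7397 to 9722, above shSC in both without passing. Of 10 endothelial markers 3 have a row, and Pecam1, Cdh5, Kdr, Tek, Tie1, Emcn and Vwf have none. Of 10 markers of fibroblasts and smooth muscle 3 have a row, with Col1a1, Col1a2 and Dcn among those without. Of 10 macrophage markers 4 have a row, and their summed scaled counts were 9307, 8559 and 8070. In shSC, library 20 and library 21, Cd14 was at 3222, 2576 and 1659, Lyz2 at 56.5, 260 and 108, and Cd68 at 88.6, 105 and 87.5. Mrc1 was at 5617 to 6215. None of these 4 was called, whereas Ptprc, Adgre1 and Csf1r are among those without a row. Of 10 lymphocyte markers 0 have one. The part of macrophage markers in the values below was not tested. These are bulk libraries, in which fewer cells of a kind and less RNA per cell cannot be told apart.

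Across the 10 targets, Crim1, Amotl2 and Ankrd1 rose in shNF2 and F3 fell. Ccdc80, Edn1, Ajuba and Asap1 were above shSC in both shNF2 libraries without passing the test, and Nt5e and Amotl1 lay on both sides of shSC, as did 28.1% of all tested genes. The 3 members called higher compare with 0.414% of all tested genes called higher, and the 1 called lower with 0.429% called lower (limma, adjusted p at or under 0.05). On the recovered reads edgeR called 2 members higher (0.226% of all genes) and 1 lower (0.406%), and DESeq2 3 higher (0.32%) and 1 lower (0.445%). At an unadjusted p under 0.05 there were 8 of the 10 members and 9.27% of all genes. The groups did not overlap for 7 members above shSC, against 36.1% of all genes, and for 1 below, against 35.8%. The median log2 fold change of the 10 was 0.86 (0.81 in library 20 and 1.10 in library 21), beside 0.00 over all genes tested. The members were chosen with earlier results of these data in view, so these comparisons with all genes are descriptive only. Both shNF2 libraries are set against the same shSC library, so a shared direction is no replication. limma called no member without a variance trend or under quantile normalization, settings in which it called no gene of the table.

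**Figure D1:**
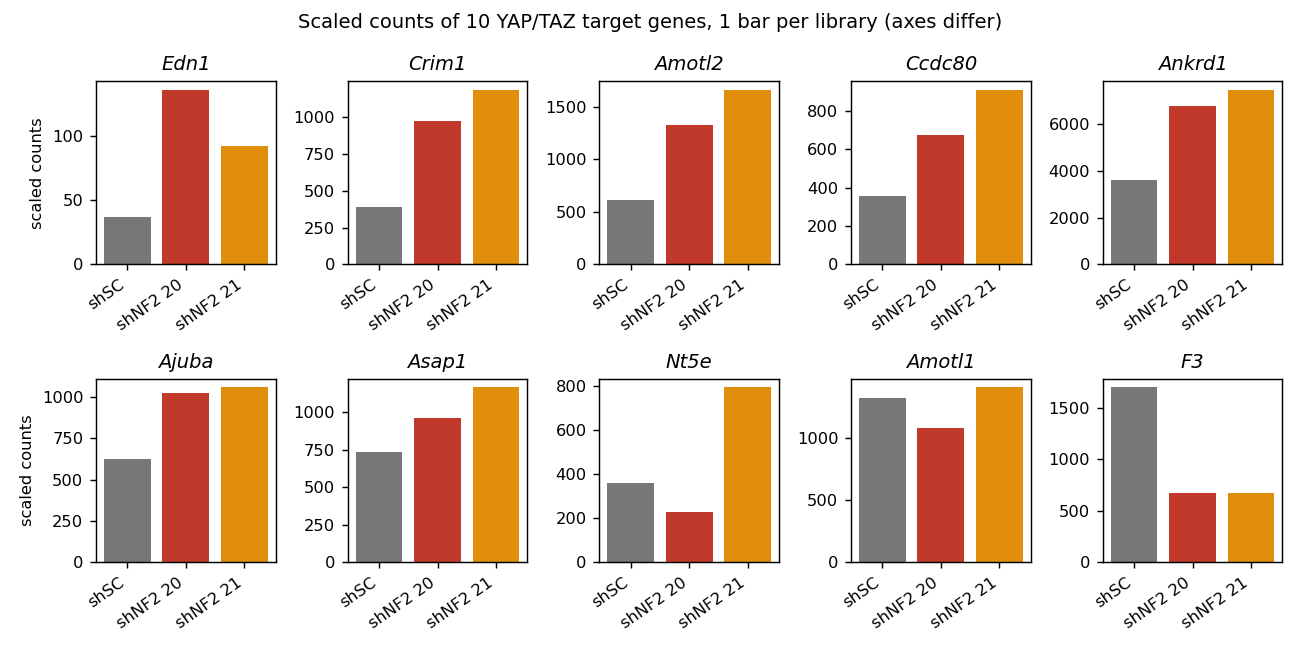
Scaled counts (vertical axis, starting at 0, with a different range in each panel) of the 10 target genes in shSC, library 20 and library 21, 1 bar per library and ordered by mean log2 fold change. In the first 7 panels both shNF2 bars stand above shSC, and in the F3 panel both stand below it.

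Crim1, which encodes a transmembrane protein whose cysteine-rich repeats bind bone morphogenetic proteins, had the smallest p-value of the 10. It measured 388 in shSC, with 975 and 1188 scaled counts in libraries 20 and 21. Both shNF2 values were above shSC, and library 21 was the higher of them. The ratio to shSC was 2.51 in library 20 (95% exact interval 2.23 to 2.83) and 3.06 in library 21 (2.73 to 3.43). These intervals, and those that follow, cover counting error only. The log2 fold change was 1.47 ± 0.24 (SE, limma adjusted p = 0.0119), rank 45 of 12813 genes by p-value. Among its relatives of the chordin type, Bmper had a log2 fold change of -0.29 and did not pass, and Chrd was too low to test.

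The angiomotins Amotl2 and Amotl1 encode junction proteins that bind YAP and hold it in the cytoplasm, and their values parted. Amotl2 measured 614 in shSC, with 1327 and 1659 scaled counts in libraries 20 and 21, and its log2 fold change was 1.27 ± 0.24 (SE; n = 2 against 1; limma adjusted p = 0.0231). Its ratio to shSC was 2.16 in library 20 (1.96 to 2.38) and 2.70 in library 21 (2.46 to 2.96). Amotl1 measured 1328 in shSC, with 1083 and 1412 scaled counts in libraries 20 and 21. Amotl1 was thus lower in library 20, at a ratio of 0.815 (0.751 to 0.884), and in library 21 its interval of 0.987 to 1.15 included 1. Over both libraries the fitted log2 fold change was -0.10 ± 0.24 (SE, limma adjusted p = 0.934). The log2 ratio of Amotl2 to Amotl1 was -1.11 in shSC, against 0.29 and 0.23 in libraries 20 and 21, so Amotl2 changed relative to Amotl1 by 1.40 and 1.34. An exact permutation test of 2 libraries against 1 cannot go below 0.333, and this pair was chosen after its values were seen. The third angiomotin gene, Amot, has no row in the table used here.

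Ajuba encodes a LIM-domain scaffold at junctions that binds LATS kinases and limits their action on YAP. It measured 624 in shSC, with 1023 and 1058 scaled counts in libraries 20 and 21, and the shNF2 libraries did not differ beyond counting error. The ratios of 1.64 (1.48 to 1.81) and 1.69 (1.54 to 1.87) exceeded counting error, but the log2 fold change of 0.74 ± 0.23 (SE) did not pass over all genes (limma adjusted p = 0.239). Of the 5 tested LIM proteins of the Ajuba and Zyxin families 0 passed with limma, edgeR or DESeq2. Of these 5, 2 (Ajuba and Lpp) had an unadjusted p under 0.05, against 9.27% of all tested genes. The median log2 fold change of the 5 was -0.01. Lpp, an adhesion-site relative of Zyxin, had 720, 1067 and 1747 scaled counts in shSC, library 20 and library 21 (log2 fold change 0.92, limma adjusted p = 0.221).

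Ankrd1 encodes a muscle ankyrin repeat protein found in the nucleus and in sarcomeres and is widely used as a readout of YAP. It measured 3596 in shSC, with 6788 and 7483 scaled counts in libraries 20 and 21. The ratios to shSC were 1.89 (1.81 to 1.97) and 2.08 (2.0 to 2.17), the narrowest intervals relative to their size among the 10, since Ankrd1 had the most reads. The log2 fold change was 0.99 ± 0.21 (SE, limma adjusted p = 0.0479), rank 106 of the 108 genes called. Besides the settings in which no gene was called, Ankrd1 missed the threshold with robust moderation (limma adjusted p = 0.0538), TMM scaling (0.0663) and edgeR (0.0952), at log2 fold changes of 0.98 to 0.99. Over the 11 alternatives that kept a test its adjusted p ran from 0.00955 to 0.523. Its relative Ankrd23 did not pass, with a log2 fold change of -0.15.

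**Figure D2:**
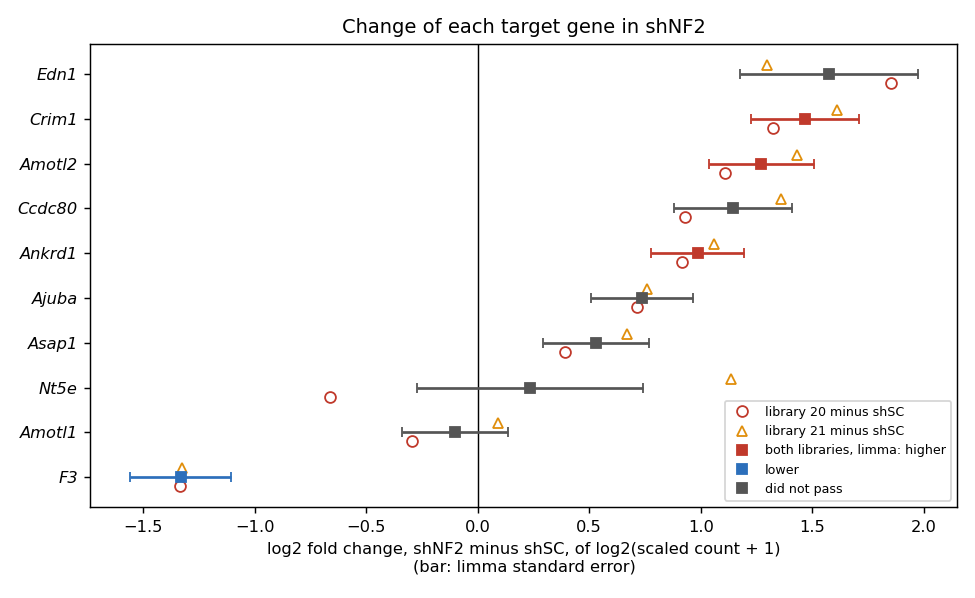
Log2 fold change of shNF2 against shSC (horizontal axis) for the 10 targets; squares with bars are the limma estimate over both libraries ± SE, circles are library 20 and triangles library 21, each minus shSC. Crim1, Amotl2 and Ankrd1 (red) were called higher and F3 (blue) lower, and the 2 libraries lie farthest apart for Nt5e.

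The secreted and matrix-linked targets Ccdc80 and Edn1 stood at 1.91 to 3.68 times the shSC level in the shNF2 libraries but did not pass. Ccdc80, which encodes a secreted protein of the extracellular matrix, measured 353 in shSC, with 674 and 909 scaled counts in libraries 20 and 21. Its ratios were 1.91 (1.67 to 2.17) and 2.57 (2.28 to 2.91), and its log2 fold change of 1.14 ± 0.26 (SE) had a limma adjusted p of 0.0753. Ccdc80 passed without the filter on low values (limma adjusted p = 0.0133) and after a correction for transcript length and GC (0.0446). It had 363, 644 and 935 reads in shSC, library 20 and library 21.

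Edn1, the precursor gene of the vasoconstrictor peptide endothelin 1, measured 37.0 in shSC, with 136 and 92.3 scaled counts in libraries 20 and 21. Its log2 fold change of 1.57 was the largest of the 10 and had the second largest error, 0.40 (SE, limma adjusted p = 0.117). Only 38 reads stood behind the shSC value and 130 and 95 behind the others. The ratios of 3.68 (2.54 to 5.42) and 2.5 (1.70 to 3.74) therefore had wide intervals. Edn1 was the only member lower in library 21 than in library 20, at a direct ratio of 0.679 (0.516 to 0.892). Edn1 passed without the filter (limma adjusted p = 0.0317) and in 0 of the other 10 alternatives with a test. Edn2, the gene of a related endothelin, went the other way, at 80.8 in shSC against 24.1 and 40.8 scaled counts in libraries 20 and 21 (log2 fold change -1.34, limma adjusted p = 0.341). Of the 4 tested endothelin pathway genes, which include the converting enzyme genes Ece1 and Ece2, 0 passed with limma, edgeR or DESeq2. Of these 4, 2 (Edn1 and Edn2) had an unadjusted p under 0.05, against 9.27% of all tested genes. The receptor genes Ednra and Ednrb have no row in the table used here.

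Asap1 encodes an Arf GTPase-activating protein of focal adhesions and invasive membrane protrusions. It measured 734 in shSC, with 964 and 1167 scaled counts in libraries 20 and 21, the smallest shift among the 7 members above shSC in both. The ratios were 1.31 (1.19 to 1.45) and 1.59 (1.45 to 1.74), and the log2 fold change of 0.53 ± 0.24 (SE) did not pass (limma adjusted p = 0.510). Asap3 had 38.9, 94.1 and 67.1 scaled counts in shSC, library 20 and library 21 (log2 fold change 1.01, limma adjusted p = 0.444).

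F3 went against the other called targets. It encodes tissue factor, the membrane receptor for coagulation factor VIIa that starts clotting. F3 measured 1696 in shSC, with 672 and 676 scaled counts in libraries 20 and 21, so both shNF2 libraries were below shSC and differed from each other by less than counting error. The ratios to shSC were 0.396 (0.361 to 0.434) and 0.398 (0.364 to 0.435). The log2 fold change was -1.33 ± 0.23 (SE, limma adjusted p = 0.0138), rank 158 from the lowest of 12813. The absolute difference between libraries 20 and 21 was at percentile 1.99 of all tested genes. Among the 11 alternatives with a test, 9 kept the call, with log2 fold changes of -1.43 to -1.32, and the exceptions were the 2 settings in which no gene was called.

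Around F3, of the 6 tested genes of the tissue factor pathway only F3 passed with limma, edgeR or DESeq2. Of these 6, 3 (F3, Pros1 and F2rl1) had an unadjusted p under 0.05, against 9.27% of all tested genes. Pros1, the gene of the anticoagulant cofactor protein S, measured 91.5 in shSC, with 198 and 216 scaled counts in libraries 20 and 21 (log2 fold change 1.17, limma adjusted p = 0.152). F2rl1, the gene of a protease-activated receptor that the tissue factor complex can cleave, had 648, 386 and 258 (log2 fold change -1.04, limma adjusted p = 0.172); it was chosen after its values were seen. F3 and Edn1 are known to be induced in endothelial cells. The summed scaled counts of endothelial markers were 169 in shSC, against 109 and 89.4 in libraries 20 and 21. Of these sums Ecscr made 128, 52.3 and 40.8. Egfl7, the other tested marker, went the other way, at 33.1, 53.3 and 44.7 scaled counts, and Esam had only 9, 3 and 4 reads. The part of endothelial markers in the values of F3 and Edn1 was not tested.

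Nt5e showed opposite shifts in the shNF2 libraries. It encodes CD73, the surface enzyme that turns AMP into adenosine. Nt5e measured 360 in shSC, with 227 and 791 scaled counts in libraries 20 and 21. Library 20 was below shSC, at a ratio of 0.630 (0.530 to 0.747), and library 21 above it, at 2.20 (1.94 to 2.49). The log2 fold change over both was 0.23 ± 0.50 (SE, limma adjusted p = 0.926). Between the shNF2 libraries Nt5e differed by a ratio of 3.49 (3.0 to 4.07), a log2 difference of 1.80 that lay at percentile 99.4 of all tested genes by size. Of the 8 tested genes of the ectonucleotidase and adenosine list, Nt5e included, 0 passed with limma, edgeR or DESeq2. Of these 8, 1 had an unadjusted p under 0.05, against 9.27% of all tested genes. That gene, Adk, the adenosine kinase gene, had 4457, 6545 and 7070 scaled counts (log2 fold change 0.61, limma adjusted p = 0.305). Slc29a1, with the next smallest p of the list, had 1660, 1415 and 1326 (log2 fold change -0.28, limma adjusted p = 0.752). The summed fibroblast and smooth muscle markers had 14.6 scaled counts in shSC, against 22.0 and 90.4 in libraries 20 and 21. Acta2 made 69.0 of the sum in library 21, from 71 reads, and had 1 read in each of the other libraries. Pdgfra had 10, 11 and 15 reads and Col3a1 had 4, 9 and 7 in shSC, library 20 and library 21. The part of these markers in the value of Nt5e was not tested.

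**Figure D3:**
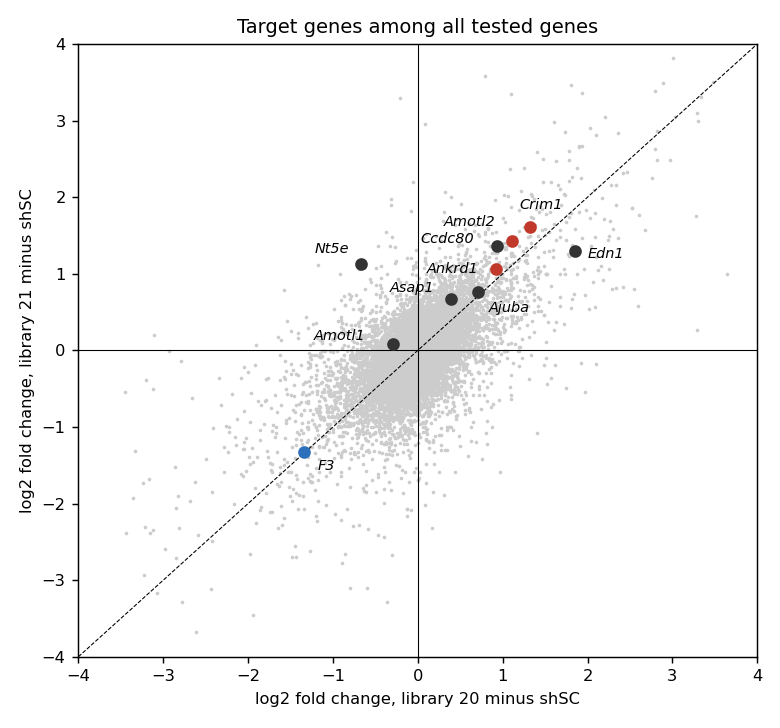
Log2 fold change against shSC in library 20 (horizontal axis) and library 21 (vertical axis) for all tested genes (grey; 16 lie beyond the axis limits of 4) and the 10 targets (red called higher, blue called lower, black not called); the dashed line marks equal change. Both axes share the shSC library. F3 lies on the dashed line at the lower left, and Nt5e lies far above it.

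Library 21 was above library 20 for 9 of the 10 members, all but Edn1, against 50.8% of all tested genes. The median difference was 0.28 on the log2 scale (0.01 over all genes). For F3 and Ajuba, counted among the 9, the interval of the direct ratio included 1 (0.902 to 1.12 and 0.947 to 1.13). Library 21 also shifted with the GC content of transcripts, as taken from human transcripts of the same gene name: with genes sorted into 8 equal groups by GC, its median log2 fold change was 0.19 at the lowest GC and -0.31 at the highest. Ankrd1 and F3 lay in the second lowest group and Amotl2 in the highest. The GC and length of a gene were medians over its human protein-coding transcripts, short ones included. The median length was 779 bases for Amotl2 and 8844 for Amotl1, and the corrected values rest on such medians. After a trend over GC and length was removed, library 21 was above library 20 for 8 members, all but Edn1 and F3. Amotl2 then had log2 fold changes of 1.19 and 1.78 in libraries 20 and 21, Ankrd1 had 0.88 and 0.90, and Nt5e had -0.64 and 1.08. Amotl1 then lay below shSC in both, at -0.31 and -0.11.

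The regulators of these targets were looked at next. Of the 7 tested YAP, TAZ, TEAD and VGLL genes 0 passed with limma, edgeR or DESeq2 (3 of the 10 listed have no row). Of these 7, 0 had an unadjusted p under 0.05, against 9.27% of all tested genes. The median log2 fold change of the 7 was -0.18. Tead1 measured 926 in shSC, with 1100 and 1575 scaled counts in libraries 20 and 21 (log2 fold change 0.51, limma adjusted p = 0.586), and Wwtr1, which encodes TAZ, had -0.18 (0.841). Of 13 Hippo kinases and adaptors 1 passed, Nf2 itself, and Stk4, the gene of the kinase MST1, had a log2 fold change of 0.61 (limma adjusted p = 0.368).

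Other known YAP/TAZ targets were measured beside them. The CCN genes Cyr61 and Ctgf both rose, by log2 fold changes of 1.91 and 1.31 (limma adjusted p = 0.00469 and 0.0278). DESeq2 also called both, although edgeR called Cyr61 and not Ctgf. Of 15 tested targets outside both groups 0 passed with limma, edgeR or DESeq2, and 5 had an unadjusted p under 0.05 in either direction, as did 9.27% of all tested genes. Their median log2 fold change was 0.13, with 7 above shSC in both libraries (36.1% of all tested genes), 4 below in both (35.8%) and the others on both sides (28.1%). Tgfb2, a growth factor gene, measured 37.0 in shSC, with 99.4 and 77.8 scaled counts in libraries 20 and 21 (log2 fold change 1.23, limma adjusted p = 0.276). Tspan18, a tetraspanin gene, had 198, 82.6 and 105 (-1.08, limma adjusted p = 0.267). The 10 members were named with earlier results of these data known. Their larger share of calls and larger median change are thus no independent evidence about YAP/TAZ targets as a class.

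**Figure D4:**
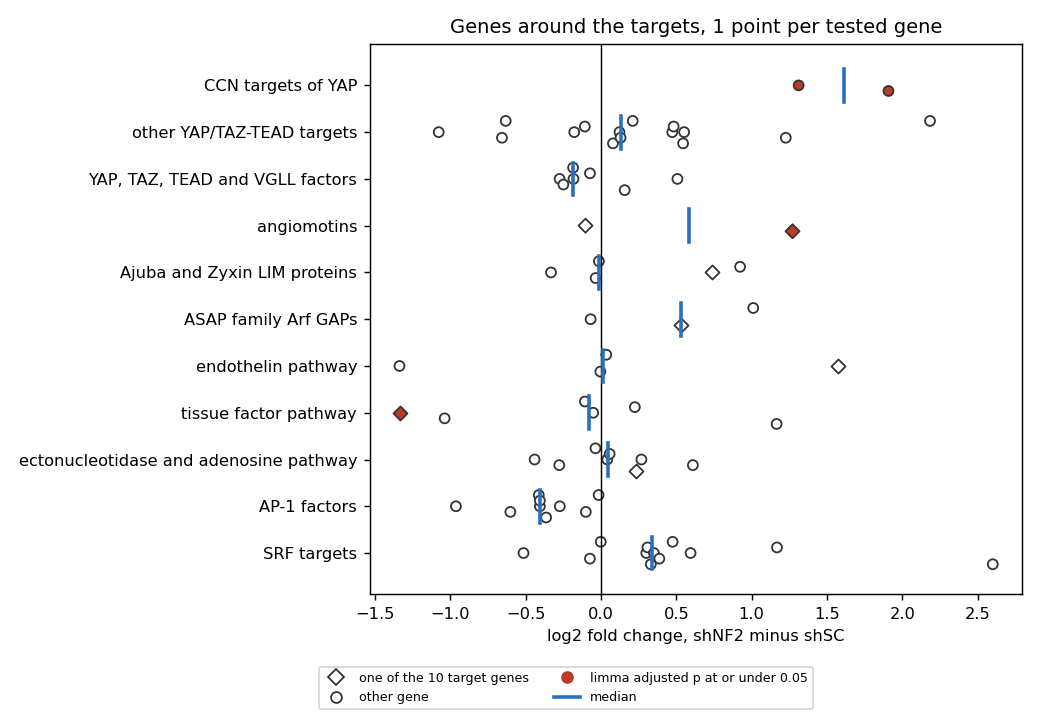
Log2 fold change of shNF2 against shSC (horizontal axis) for the tested genes of the 11 lists named on the vertical axis, 1 point per gene; diamonds are among the 10 targets, filled red points had a limma adjusted p at or under 0.05 and blue lines are medians. Among the lists drawn, which do not hold Nf2, Crim1 or Ankrd1, the red points are the CCN genes, Amotl2 and F3.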

How the data were processed

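Poly(A) RNA of 3 AB12 libraries was read as pairs, per the labels' protocols. The authors deposited 1 table of gene signal, described by its name as scaled counts. Per the submitters' processing notes, cutadapt 1.6, STAR 2.5.0a, HTSeq 0.5.3, DESeq 1.22.1 and mm10 were used, with no role or order given. Per the values, every deposited signal was a whole number of reads (tolerance 0.001) divided by 1 factor per library, 100% of values being whole. Low genes had been removed before deposit (smallest total 15 reads). A further 4 rows naming no gene held 47.7% to 48.7% of reads and were left out.

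limma 3.58.1 (R 4.3.3, variance trend, two-sided) was run on log2(scaled count + 1) for all genes whose mean reached 10, p-values were adjusted over all of them (Benjamini-Hochberg), and the threshold was 0.05. Fold changes of low genes are understated on this scale. Only the difference between the shNF2 libraries gives a residual (1 degree of freedom, moderated across genes), and shSC is assumed to share that spread. Alternatives were edgeR 4.0.16 and DESeq2 1.42.0 on the recovered reads, beside other pseudocounts, filters, scalings and moderation and each shNF2 library alone. The length and GC correction (mgcv 1.9.3, human GENCODE transcripts as stand-ins for 80.7% of tested genes) was chosen after seeing the data. Ratios of reads carry exact conditional binomial intervals.

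Members and lists were chosen with earlier results of these data known. Genes named were the 10 members, Nf2, and in each gene list the genes that passed and, where fewer than 2 did, the 2 with the smallest p; other names were chosen after their values were seen. The scripts were tested on simulated data. No mouse sequence was used here.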

Additional observations from a re-analysis of the deposited data

How the results depend on the processing

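All 10 members kept their direction in each of the 11 alternatives that kept a test, and 96 of these 110 values stayed on the same side of the threshold. Calls were lost under quantile normalization and without a variance trend, where 0 members were called higher, 0 lower and 0 genes of the whole table in either direction by limma. At an unadjusted p under 0.05 these settings had 882 and 1036 genes and 7 members each, and edgeR called 81 genes and DESeq2 98 in the table. Ankrd1 was also lost under TMM, edgeR and robust moderation. Without the filter on low values limma called 5 members and 110 of 13936 genes higher, against 3 and 53 of 12813 with it. In either direction 232 genes were called without the filter, against 108 with it. With 1 shNF2 library there is no test. Counted at a fold of at least 1.5, leaving out one or the other gave 6 to 8 members higher and 1 to 2 lower. The same limit gave 1859 to 2435 of the 12813 tested genes of the table in either direction. These counts over the table were not split by direction. They therefore give no share to set beside the members higher or lower alone. Library 21 alone put Nt5e higher and library 20 alone put it lower. No paired analysis was possible because a single shSC library stands against both shNF2 libraries. The planned search of promoters for the TEAD motif and its 2 alternatives were not run, since no mouse promoter sequence was used here. Edn1 had the fewest reads of the 10 members, and the single shSC library limits every value. The cause of the changes with processing was not tested.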

Other observations

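AP-1 factors, which often share enhancers with TEAD, gave 0 calls among 9 tested genes with limma, edgeR or DESeq2. Of these 9, 1 had an unadjusted p under 0.05, against 9.27% of all tested genes. The median log2 fold change of the 9 was -0.41. There were 7 below shSC in both shNF2 libraries (35.8% of all tested genes) and 0 above in both (36.1%). Junb measured 801 in shSC, with 524 and 322 scaled counts in libraries 20 and 21 (log2 fold change -0.96, limma adjusted p = 0.24), and Fosb had 129, 70.1 and 103. Targets of SRF, the actin-responsive factor that shares some targets with YAP, gave 0 calls among 12 tested genes with limma or edgeR. DESeq2 called 1, Cnn2. Of these 12, 2 had an unadjusted p under 0.05, against 9.27% of all tested genes. The 12 had a median log2 fold change of 0.34 and 8 above shSC in both libraries, against 36.1% of all tested genes. Acta2, counted among the 8, had only 1 read in shSC and 1 in library 20, with 71 in library 21. Cnn2, a calponin gene, had 1045, 1815 and 3039 scaled counts (1.17, limma adjusted p = 0.0859), and Fhl2 had 845, 1322 and 1233.

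Thbs1, the thrombospondin 1 gene and a YAP target, measured 99.3 in shSC, with 173 and 1196 scaled counts in libraries 20 and 21, and it did not pass (log2 fold change 2.18, limma adjusted p = 0.29). It was chosen after its values were seen.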
